A study of Homo sapiens with 24 samples.

Results

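The genes of the EGF ligand and ERBB receptor family were examined for H3K27ac, the acetylation of lysine 27 on histone H3 that is found at active promoters and enhancers. The 10 genes were the EGFR ligands HBEGF, AREG, EREG, TGFA, BTC and EPGN, the neuregulin NRG1, and the receptors EGFR, ERBB2 and ERBB3. A region belonged to a gene when the authors' annotation named that gene as overlapping it or as lying beside it. By this rule, 107 of the 50284 regions compared between shANCO1 and shCTRL in 10A cells belonged to the family, and 68 of the 44790 compared in DCIS cells. Of the regions called over input, 48 of 28607 in 10A shANCO1, 26 of 15490 in 10A shCTRL, 27 of 16692 in DCIS shANCO1 and 14 of 15482 in DCIS shCTRL belonged to it. No region named more than 1 of the 10 genes.

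The libraries came from MCF10A (10A), an immortalised human mammary epithelial line taken as a pre-malignant stage, and from MCFDCIS (DCIS), its oncogene-transformed, xenograft-passaged descendant, which stands for ductal carcinoma in situ. Each line carried either a hairpin that depletes ANCO1, the product of ANKRD11 (shANCO1, in the cell line numbered 3 per the study), or a control hairpin (shCTRL, named shGFP in the tables), and each of the 8 groups had 3 libraries, immunoprecipitated or input. The hairpins were delivered by lentivirus and the infected cells were kept as puromycin-selected populations. Both lines are described as negative for the oestrogen and progesterone receptors and without HER2 (ERBB2) amplification, and all 24 libraries came from cells fed EGF, at 20 µg/ml per the labels, so the EGF receptor had ligand in the medium in every group.

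The ligands of this family are made as membrane-anchored precursors. Metalloproteases shed them, and the freed growth factor binds EGFR or, for neuregulins, ERBB3 and ERBB4. ERBB2 binds no ligand of its own and signals as the partner of the other receptors, and basal mammary epithelial cells depend on EGFR signalling for growth. The deposited values were 1 log2 fold change and 1 FDR per region, computed by the authors with csaw over the 3 libraries of each group. The FDR is the false discovery rate across all regions of a table, and the fold change is that of a representative window of the region. No value per library was analysed here, so the spread between replicates and the depth are unknown, and the level of ANCO1 itself was not analysed here. A region is called up or down below when its FDR was under 0.05.

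Sequences are shown as examples, 1 stretch each for HBEGF, TGFA and EGFR among regions that were up in both lines, and the ERBB2 region that was up in DCIS. NRG1 and AREG also had regions up in both lines. Each is the 300 bases at the midpoint of the stretch shared by the lines, or of the region for ERBB2. These are on the forward strand of GRCh38. For each gene, shared stretches whose midpoint window held no annotated exon were ranked by the larger FDR of the lines, and the lowest was taken. For HBEGF, the 250 bases before the RefSeq transcription start (GRCh38.p14, reverse strand) are added. Regions on both sides of that start were up in DCIS, and a region across it was up in 10A. None of these overlapped a region called over input. Among all regions that were up, 61.5% in DCIS and 29.9% in 10A overlapped none in either group of their line. Most of the 250 bases lie between the DCIS regions. Capitals mark matches to the AP-1 word TGACTCA or TGAGTCA and to the TEAD word GGAATG, each on either strand. No AP-1 match overlapped a TEAD match in the sequences shown.
HBEGF shared region, chr5:140323251-140323550: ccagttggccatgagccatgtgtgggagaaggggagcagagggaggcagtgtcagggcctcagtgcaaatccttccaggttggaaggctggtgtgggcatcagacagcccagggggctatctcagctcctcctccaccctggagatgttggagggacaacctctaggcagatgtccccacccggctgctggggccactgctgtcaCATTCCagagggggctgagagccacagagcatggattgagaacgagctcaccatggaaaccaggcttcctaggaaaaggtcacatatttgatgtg
HBEGF upstream of its start, chr5:140346604-140346853: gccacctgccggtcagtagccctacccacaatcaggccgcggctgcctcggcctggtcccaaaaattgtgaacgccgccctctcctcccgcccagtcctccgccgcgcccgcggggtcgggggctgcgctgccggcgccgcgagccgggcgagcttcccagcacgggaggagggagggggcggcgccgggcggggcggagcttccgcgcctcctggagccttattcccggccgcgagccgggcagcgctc
TGFA shared region, chr2:70552451-70552750: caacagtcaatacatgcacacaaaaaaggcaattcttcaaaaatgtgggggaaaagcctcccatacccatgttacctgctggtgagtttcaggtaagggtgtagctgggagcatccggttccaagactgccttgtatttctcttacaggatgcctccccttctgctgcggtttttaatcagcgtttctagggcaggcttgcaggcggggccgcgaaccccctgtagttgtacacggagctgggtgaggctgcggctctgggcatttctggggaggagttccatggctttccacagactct
EGFR shared region, chr7:55133251-55133550: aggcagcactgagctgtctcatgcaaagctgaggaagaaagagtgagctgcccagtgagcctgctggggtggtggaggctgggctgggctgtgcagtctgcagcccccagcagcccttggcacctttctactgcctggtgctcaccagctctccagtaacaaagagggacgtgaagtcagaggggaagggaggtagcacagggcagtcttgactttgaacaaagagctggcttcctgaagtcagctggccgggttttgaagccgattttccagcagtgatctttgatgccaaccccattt
ERBB2 region in DCIS, chr17:39706001-39706300: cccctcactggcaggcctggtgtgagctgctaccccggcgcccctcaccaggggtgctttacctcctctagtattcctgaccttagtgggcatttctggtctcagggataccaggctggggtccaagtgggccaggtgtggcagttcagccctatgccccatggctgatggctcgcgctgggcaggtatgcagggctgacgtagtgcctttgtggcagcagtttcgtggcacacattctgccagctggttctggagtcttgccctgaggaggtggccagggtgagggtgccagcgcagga
Of these windows only the distal HBEGF window held a match, to the TEAD word. Over the whole shared stretches, 1 TEAD match lay in the 800 bp at HBEGF and 1 in the 2800 bp at TGFA, and 2 AP-1 matches lay in the 2400 bp at EGFR.

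Across all family regions, the 300 bases at the region midpoint held a TEAD match in 30 of 107 regions in 10A (28.0%) and in 12 of 68 in DCIS (17.6%). Among all regions, 18.0% in 10A and 17.4% in DCIS held this match. An AP-1 match was found in 5 family regions in 10A (4.67%, against 11.1% of all regions) and in 8 in DCIS (11.8%, against 9.4%). At transcription starts, 8 of the 10 genes had a RefSeq promoter in the reference table, which did not list NRG1 and ERBB3. The 250 bases before the EREG start held 1 TEAD match, and those before the internal EGFR start at chr7:55109839 held 2 AP-1 matches and 1 TEAD match. Of 35116 RefSeq promoters, 4.2% held the AP-1 word and 11.9% the TEAD word in the same 250 bases. These matches are letters found in a window and say nothing of binding.

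The first question was how H3K27ac at the family differed between shANCO1 and shCTRL cells. In 10A, 47 of the 107 family regions were up (43.9%), a share close to the 43.6% of all regions that were up in this line, and 1 region was down (0.935%, against 0.225%). The count up in 10A was 29 at FDR under 0.01, and 1, at NRG1, when a log2 fold change of at least 1 above the 10A median was required. In DCIS, 29 of 68 were up (42.6%) against 23.6% of all regions, and none was down, where 4.86% of all regions were. The median log2 fold change of the family regions was 0.81 in 10A and 1.07 in DCIS, beside medians over all regions of 0.76 and 0.52. Because most regions of both tables had positive values (91.8% in 10A and 66.9% in DCIS) and the normalization was not stated, a region's value is best read against these medians. NRG1 held 13 of the 29 DCIS regions that were up. Without it, 16 of 52 family regions were up in DCIS (30.8%) and 37 of 70 in 10A (52.9%).

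By gene, every member but ERBB3 had at least 1 region up in 10A. In DCIS the genes with a region up were HBEGF, AREG, TGFA, NRG1, EGFR and ERBB2. The share of all genes with a region up was not computed, and a gene with more regions has more that can pass. By region, 43.6% of all regions were up in 10A and 23.6% in DCIS. All 4 HBEGF regions of DCIS were up, with values well above the median of the line, whereas EREG, EPGN, BTC and ERBB3 had none. The 2 lines were compared with their own controls in separate tables, and the difference between lines was not tested.

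**Figure D1:**
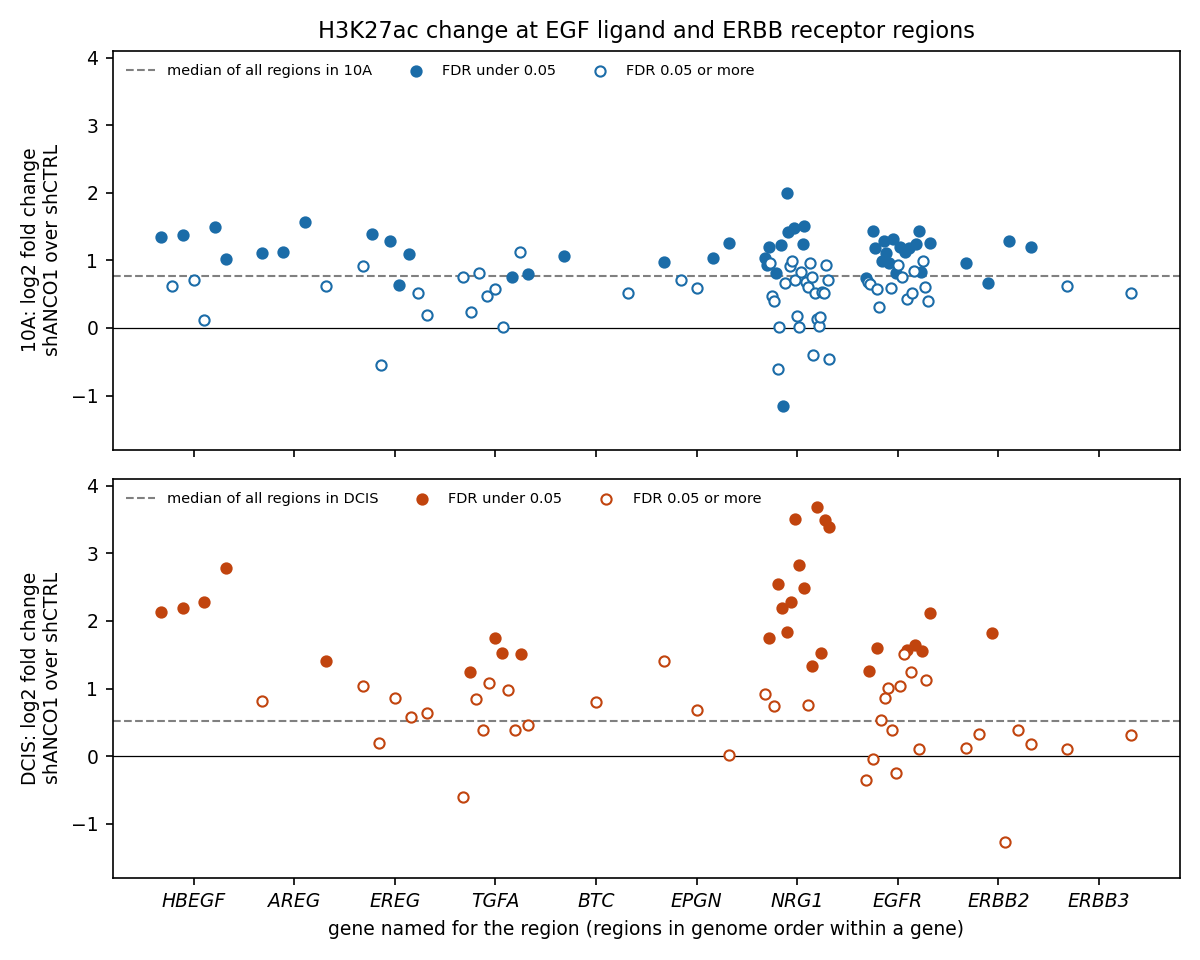
Log2 fold change of H3K27ac, shANCO1 over shCTRL, for each region of the 10 genes in 10A (top) and DCIS (bottom), with filled points for FDR under 0.05 and open points otherwise, and a dashed line at the median of all regions of the line (0.76 and 0.52). The HBEGF regions of DCIS lie between 2.14 and 2.79 and the highest NRG1 region at 3.68, while in 10A no family region exceeds 1.99.

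HBEGF, on chromosome 5 (chr5:140332843-140346603, reverse strand), encodes heparin-binding EGF, a ligand shed from the cell surface that binds EGFR and ERBB4. In DCIS its 4 regions were all up, where 23.6% of all regions were. The region just upstream of the start (chr5:140346801-140349600) had a log2 fold change of 2.79 (FDR 1.09e-05), with 24 of its 24 windows up. Just inside the gene (chr5:140345501-140346500) the value was 2.27 (FDR 9.61e-05), and further along the gene (chr5:140344401-140345100) it was 2.19 (FDR 0.00113). The fourth region lay 23.2 kb along from the start, past the 3′ end of the gene, at chr5:140323001-140323800, and had 2.14 (FDR 0.000405). These values ranked between the 93.4th and 97.8th percentiles of all DCIS regions.

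In 10A, 4 of 7 HBEGF regions were up (57.1%, against 43.6% of all regions). Of these 4, 3 overlapped the DCIS regions just given. The distal region (chr5:140322001-140324900) had the lowest FDR of the gene, at 1.34 (FDR 3.47e-07), with 24 of 28 windows up. The region across the start (chr5:140344201-140347200) had 1.49 (FDR 0.00377) and the upstream region (chr5:140347101-140350000) 1.02 (FDR 0.0101). An intronic region at chr5:140338101-140339100 was up in 10A, at 1.38 (FDR 0.00641), and had no counterpart tested in DCIS. The other 3 regions had 0.12 to 0.72 and did not pass. Neighbouring pieces of a long domain can overlap by about 100 bp, so they are not separate measurements.

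**Figure D2:**
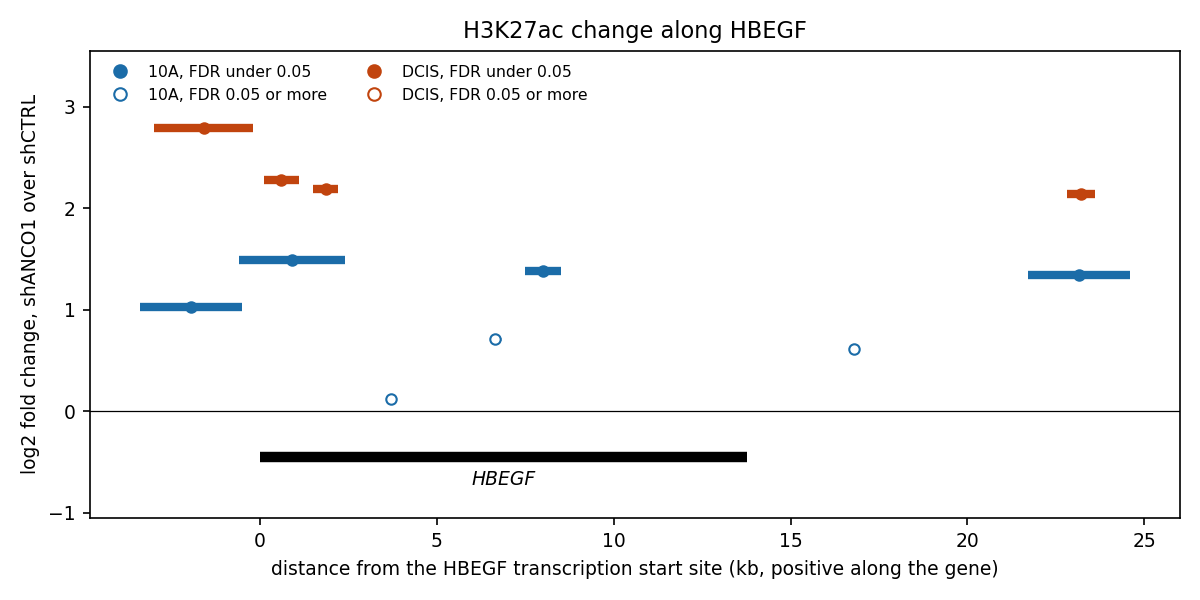
Log2 fold change of HBEGF regions in 10A (blue) and DCIS (red), drawn as bars over their extent against distance from the HBEGF start in kb along the gene, with the gene body in black. In both lines regions at the start and about 23.2 kb along from it were up, at 1.02 to 1.49 in 10A and 2.14 to 2.79 in DCIS.

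Over input, HBEGF had the fewest regions of the ligands. Its only region called over input in the 4 groups was in 10A shANCO1, at the distal site (chr5:140323101-140324000), with a log2 enrichment of 2.35 that ranked at the 2.6th percentile of that table. None of the 4 HBEGF regions that were up in DCIS overlapped a region called over input in either DCIS group. Of all DCIS regions that were up, 61.5% overlapped none either. The gain between shANCO1 and shCTRL at HBEGF in DCIS thus lay in windows that did not pass the comparison with input in these tables.

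AREG encodes amphiregulin, an EGFR ligand needed for the growth of mammary ducts in development, and lies at chr4:74445136-74455005. In 10A, 3 consecutive regions from upstream of the start through the gene body were up. Their log2 fold changes were 1.10 upstream (FDR 0.000822), 1.12 across the start (FDR 0.0004) and 1.56 in the 3′ part of the gene (chr4:74449101-74453300, FDR 3.2e-06). In DCIS, the region over the gene body (chr4:74447301-74450700) was up at 1.40 (FDR 0.00829), with 6 of 33 windows up. The DCIS region over the start (chr4:74444001-74447400) had 0.81 and an FDR of 0.213. The gene body was thus up in both lines, and the start passed in 10A and not in DCIS.

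AREG held the strongest mark of the family over input in both 10A groups. In 10A shANCO1 a region of the gene body (chr4:74447601-74451100) had a log2 enrichment over input of 8.18, at the 99.8th percentile of that table. The strongest AREG region reached 6.59 in 10A shCTRL (91.2nd percentile), 6.60 in DCIS shCTRL (81.5th) and 7.31 in DCIS shANCO1 (95.5th). Each of these held only 1 or 2 windows, whereas the 10A shANCO1 region held 33. The longest AREG region had 5.84 over 38 windows in 10A shCTRL (90.4th percentile). In DCIS the longest had 5.85 over 24 windows in shCTRL (79.7th) and 4.38 over 31 windows in shANCO1 (46.2nd). The length called over input was 4.8 kb in 10A shCTRL and 8.0 kb in 10A shANCO1, and 3.2 kb and 4.0 kb in DCIS. Thus AREG carried the mark over input in all 4 groups, controls included.

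EPGN and EREG lie beside AREG on chromosome 4, and BTC further along, and the 4 genes encode the ligands epigen, epiregulin, amphiregulin and betacellulin. Taken as a cluster, 11 of their 19 regions were up in 10A (57.9%, against the 43.6% of all regions) and 1 of 11 in DCIS (9.09%, against 23.6%). The DCIS region was the AREG gene body region described above.

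Epiregulin, a ligand of EGFR and ERBB4, is encoded by EREG (chr4:74365145-74388749). In 10A, 4 of its 8 regions were up, all in introns and none over the start itself. The highest was at chr4:74365801-74367400, at 1.39 (FDR 0.00537). Further regions had 1.28 at chr4:74370401-74372800 (FDR 0.00303), 1.09 at chr4:74376001-74379000 (FDR 0.00231) and 0.64 at chr4:74373101-74376100 (FDR 0.0103), the last below the median of all 10A regions. The small region over the start had 0.91 and an FDR of 0.0521. In DCIS, the 5 EREG regions had 0.20 to 1.03 with FDR values of 0.402 to 0.919 and so none passed, and all 5 overlapped a 10A region. An internal site of EREG was called over input in all 4 groups (chr4:74374801-74377600 in 10A shCTRL), at 3.74 in 10A shCTRL, 5.62 in 10A shANCO1, 5.66 in DCIS shCTRL and 5.62 in DCIS shANCO1. The scaling of the tables against input was not stated, so levels are compared only within a group.

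EPGN, which encodes the low-affinity EGFR ligand epigen, lies at chr4:74308470-74316789. Its promoter region in 10A (chr4:74307001-74310300) was up at 0.97 (FDR 0.00437), and 2 sites past the 3′ end were up at 1.03 (FDR 0.0421) and 1.26 (FDR 0.00589). In DCIS the promoter region had a higher value, 1.41, but an FDR of 0.255 and none of its 38 windows up. The same promoter was among the strongest family regions over input in DCIS, at 7.39 in shCTRL (95.8th percentile) and 7.12 in shANCO1 (93.2nd percentile), with 1.3 kb and 0.3 kb called. In 10A it was called over 0.5 kb in shCTRL and, with another piece, over 3.2 kb in shANCO1.

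BTC (chr4:74744759-74794523, reverse strand) encodes betacellulin, which binds EGFR and ERBB4. An intronic site 25.1 kb into the gene was up in 10A at 1.07 (FDR 0.0484), just inside the threshold. The promoter region had 0.52 in 10A (FDR 0.158) and 0.80 in DCIS (FDR 0.0576) and passed in neither. Over input, the BTC promoter was called in the shANCO1 groups (0.5 kb in 10A and 0.7 kb in DCIS) and in neither shCTRL group, which was not tested as a difference.

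**Figure D3:**
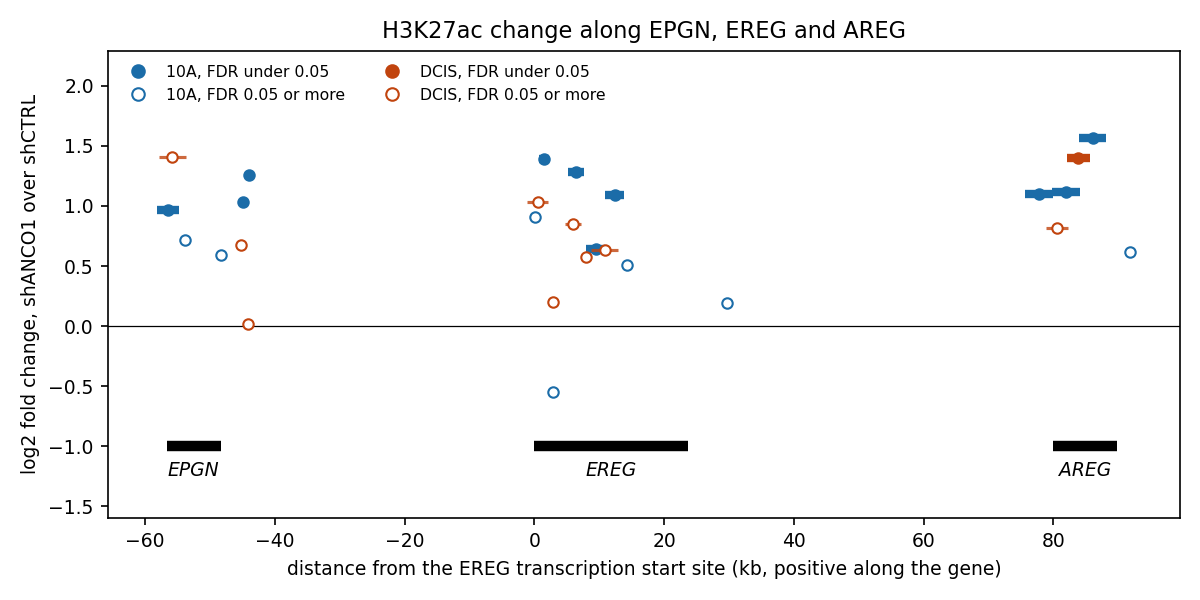
Log2 fold change of EPGN, EREG and AREG regions in 10A (blue) and DCIS (red) against distance from the EREG start in kb, with gene bodies in black and BTC, further along, not drawn. Filled points (FDR under 0.05) are nearly all 10A regions, between 0.64 and 1.56, and the DCIS region that passed is the AREG gene body at 1.40.

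TGFA encodes transforming growth factor alpha, the EGFR ligand that carcinoma cells often make for themselves, and lies at chr2:70447284-70554193 on the reverse strand. In both lines a region at the promoter and an intronic site 28.8 kb into the gene were up. In DCIS the promoter was split. The piece just upstream of the start (chr2:70554301-70555000) had 0.47 and did not pass (FDR 0.516), while the piece inside the gene (chr2:70551201-70554000) had 1.51 (FDR 0.00223) and the intronic site (chr2:70523201-70526900) 1.53 (FDR 8.74e-06), with 34 of its 36 windows up. In 10A the same positions had 0.80 (FDR 0.000315) and 0.76 (FDR 0.0374), both close to the median of all 10A regions. Smaller DCIS sites at chr2:70521101-70521500 (1.74, FDR 0.00206) and chr2:70509701-70509900 (1.24, FDR 0.0489) were up as well. In all, 4 of 11 TGFA regions were up in DCIS (36.4%, against 23.6% of all regions) and 2 of 9 in 10A (22.2%, against 43.6%). The length called over input was 1.8 kb in 10A shCTRL and 5.3 kb in 10A shANCO1, and 0.9 kb and 4.3 kb in DCIS.

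NRG1 (chr8:31639222-32855666) encodes neuregulin, the ligand of ERBB3 and ERBB4, and has many alternative starts spread over its length. It had the most regions of the family and, in DCIS, the largest changes. There, 13 of its 16 regions were up (81.2%, against 23.6% of all regions), with a median log2 fold change of 2.24 over the 16 regions. The region across the start of the canonical transcript (chr8:32547101-32549100) had the highest value of any family region, 3.68 (FDR 6.26e-08), and 13 of its 16 windows were up. Intronic sites at -241 kb from that start (3.51, FDR 3.86e-07) and at 167 kb (3.50, FDR 9.6e-08) came next. The NRG1 regions of DCIS that were not called had values of 0.74 to 0.91.

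In 10A, 10 of 37 NRG1 regions were up, a smaller share than the 43.6% of all 10A regions that were up. Of the 37, 1 was down, where 0.225% of all 10A regions were. The median was 0.71, slightly below that of all 10A regions. The highest was an intronic site at chr8:32322701-32325600, at 1.99 (FDR 4.6e-07), which ranked at the 99.6th percentile and had no counterpart among the DCIS regions. At the canonical start, the piece just upstream (chr8:32547501-32548100) was up at 1.51 (FDR 0.00198) and the piece across the first exon had 0.68 (FDR 0.391). The down region lay in an intron at chr8:32309201-32310800, at -1.15 (FDR 0.0192), with 2 of 12 windows down. In DCIS, the overlapping region had 2.83 (FDR 4.3e-07) and all of its 13 windows were up. That site was called over input in both shANCO1 groups and in neither shCTRL group, so in 10A it was down in the direct comparison and yet passed over input in shANCO1 alone.

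**Figure D4:**
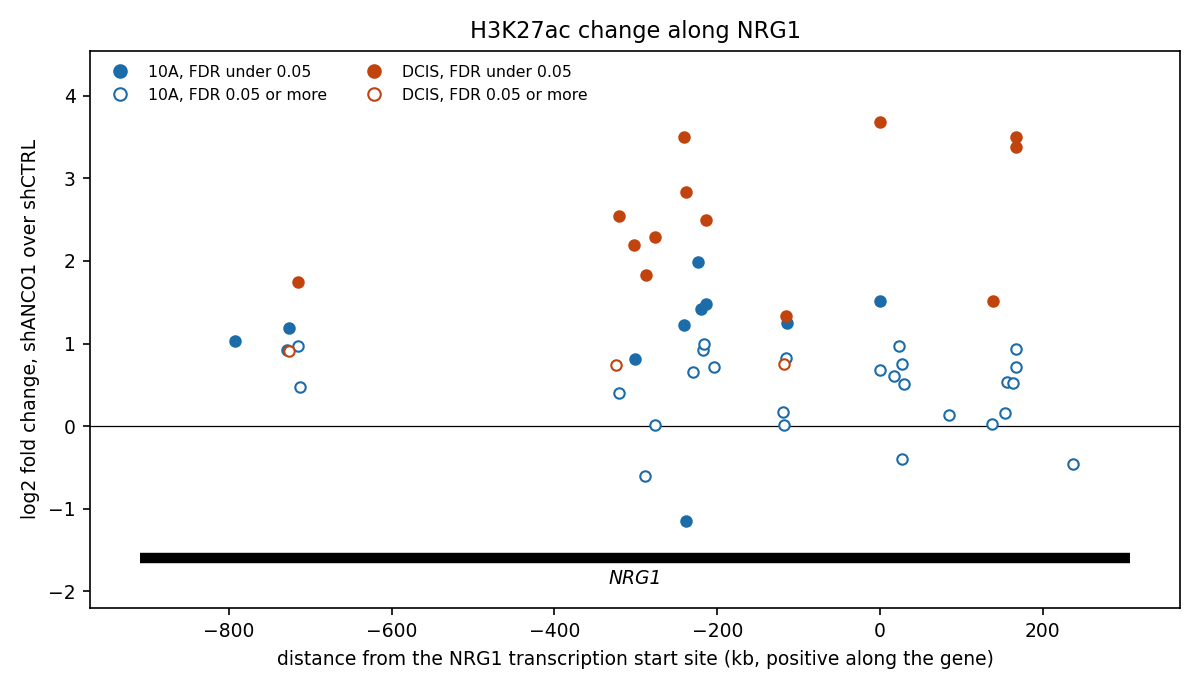
Log2 fold change of NRG1 regions in 10A (blue) and DCIS (red) against distance in kb from the start of the canonical NRG1 transcript, with the gene body in black. DCIS regions with FDR under 0.05 (filled) reach 3.68 at the start and 3.50 at 167 kb, and the 10A region below 0 with a filled point is at -1.15.

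Over input, NRG1 had 5 regions in 10A shCTRL (2.2 kb), 14 in 10A shANCO1 (9.1 kb), 2 in DCIS shCTRL (0.6 kb) and 7 in DCIS shANCO1 (2.4 kb). The canonical start was called over input in DCIS shANCO1 alone, as a region of a single window (chr8:32547701-32547900) with a log2 enrichment of 3.33. That value was low for the group, at the 7.5th percentile. A site at -320 kb from the start had the strongest NRG1 enrichment in DCIS shANCO1, 7.47 (96.8th percentile). Of the 13 NRG1 regions that were up in DCIS, 8 overlapped no region called over input in either DCIS group. The same held for 61.5% of all DCIS regions that were up.

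EGFR, the receptor bound by all 6 EGFR ligands above, lies at chr7:55019017-55211628. Most of its regions lay in introns. In 10A, 16 of 29 regions were up (55.2%, against 43.6% of all regions), with values from 0.74 to 1.43. The lowest FDR belonged to an intronic region at chr7:55051401-55054800 (1.29, FDR 0.00017), in which 33 of 33 windows were up. The promoter region (chr7:55018301-55023300) had 0.74 (FDR 0.00367), close to the median of the line. The highest value was 1.43, at an intronic site 111 kb from the start (chr7:55128001-55131900, FDR 0.00107).

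In DCIS, 6 of 18 EGFR regions were up (33.3%, against 23.6% of all regions). The highest was an intronic site 167 kb into the gene (chr7:55185801-55186200), at 2.12 (FDR 0.000959), where the 10A region had 0.40 (FDR 0.344). The region with the lowest FDR (chr7:55132201-55134600) had 1.55 (FDR 0.000469) and was also up in 10A, at 0.82 (FDR 0.022). At the promoter, the small piece nearest the start (chr7:55018601-55018900) had -0.35 and did not pass (FDR 0.688). The longer piece just inside the gene (chr7:55019201-55022300) was up at 1.27 (FDR 0.0276). A region over the internal start named above (chr7:55109701-55111500) was up in DCIS at 1.57 (FDR 0.0174) and had 0.85 in 10A (FDR 0.266).

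EGFR had the greatest length called over input of the 10 genes in 10A, 7.5 kb in shCTRL and 16.3 kb in shANCO1. In DCIS it had 0.8 kb in shCTRL and 3.7 kb in shANCO1. The strongest EGFR site in both DCIS groups was the same intronic position (chr7:55074201-55074700 in shCTRL), at 7.37 in shCTRL (95.5th percentile) and 7.03 in shANCO1 (91.5th percentile). In the direct DCIS comparison the region over that site (chr7:55072801-55075700) had 1.00 and did not pass (FDR 0.121).

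ERBB2, the co-receptor with no ligand, lies at chr17:39687914-39730426. In 10A all 4 of its regions were up, where 43.6% of all regions were. In DCIS none of the same 4 positions was up, where 23.6% of all regions were. The 10A region across the canonical start (chr17:39699501-39701000) had 0.66 (FDR 0.0399), below the median of the line. The other 3 each held the start of a different protein-coding gene, so their change cannot be assigned to ERBB2. PGAP3 starts in the region at the upstream ERBB2 start (0.96, FDR 0.0317), MIEN1 in the region at the 3′ end (1.28, FDR 0.00273) and GRB7 in the region beyond it (1.20, FDR 0.00879). The 4 DCIS counterparts had 0.12 to 0.38, with FDR values of 0.756 to 0.953.

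The ERBB2 region that was up in DCIS was a different one, at chr17:39704901-39707400, 6.09 kb along from the canonical start, and its central 300 bases are among the sequences above. It had 1.82 (FDR 6.62e-05), with 9 of 24 windows up, and no 10A region was tested there. Part of it (chr17:39706001-39706500) was called over input in DCIS shANCO1 at 3.59, the only ERBB2 region called in DCIS. In 10A, ERBB2 was called over input in shANCO1 at the canonical start (2.62) and at the 3′ end (2.84), and in shCTRL nowhere. All of these ranked at or below the 20.2nd percentile of their tables.

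ERBB3, the receptor that binds neuregulin and has little kinase activity of its own, lies at chr12:56076799-56103505. It had 2 regions in each line and none was called. The promoter region had 0.62 in 10A (FDR 0.395) and 0.11 in DCIS (FDR 0.985). The other, past the 3′ end, held the start of PA2G4 and had 0.51 in 10A (FDR 0.0681) and 0.31 in DCIS (FDR 0.699). Over input, the ERBB3 promoter was called in both DCIS groups, at 3.48 in shCTRL and 4.36 in shANCO1, and in neither 10A group, where the called regions lay past the 3′ end.

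The comparisons with input asked where the family carried the mark at all. A gene was counted as marked when at least 1 of its regions was called over input, and these tables hold almost only regions that passed, so an absent region had not passed and its level is unknown. By this count 7 genes were marked in 10A shCTRL, 10 in 10A shANCO1, 7 in DCIS shCTRL and 9 in DCIS shANCO1. The share over all genes was not computed. In the same order, these groups had 15490, 28607, 15482 and 16692 regions called genome-wide. In 10A, HBEGF and ERBB3 counted only through regions past their 3′ ends, for ERBB3 within the region that holds the start of PA2G4. The genes missing from both shCTRL groups were HBEGF, BTC and ERBB2. The length called over the family was 20.2 kb in 10A shCTRL and 51.7 kb in 10A shANCO1, and 11.5 kb and 19.9 kb in DCIS. EREG, EPGN and ERBB3 went the other way in DCIS, where less was called in shANCO1 (2.4, 0.3 and 1.6 kb) than in shCTRL (2.9, 1.3 and 1.8 kb). These lengths move with how many regions passed in each group, and the direct and input comparisons share the same immunoprecipitated libraries.

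**Figure D5:**
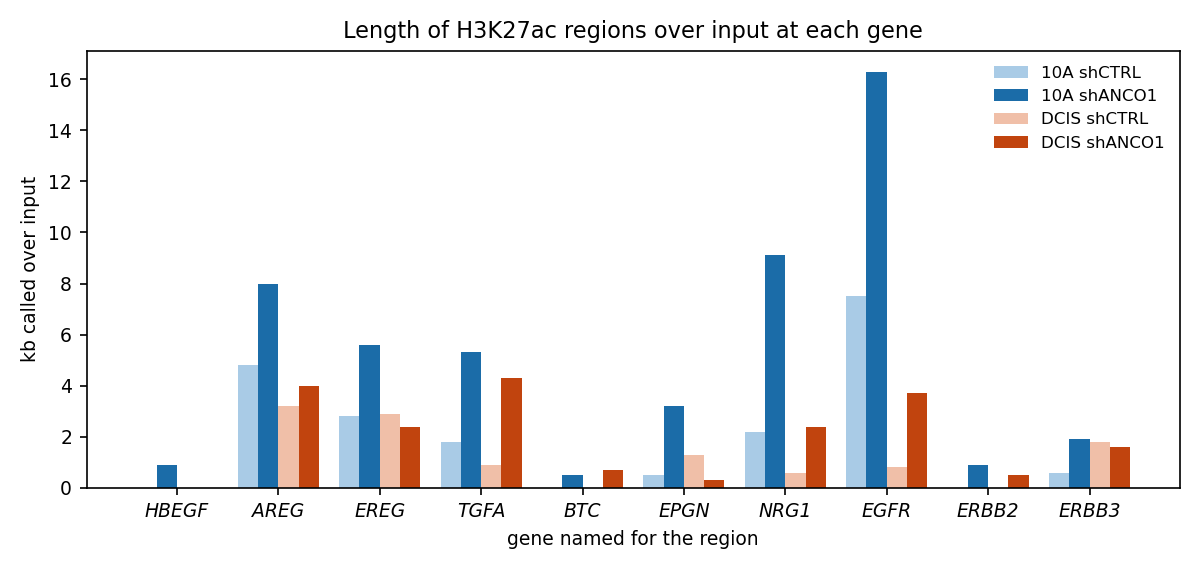
Length in kb of regions called over input at each of the 10 genes, with 1 bar per group of 3 libraries (10A in blue and DCIS in red, shCTRL pale and shANCO1 dark). EGFR in 10A shANCO1 has the highest bar, 16.3 kb, and HBEGF, BTC and ERBB2 have no bar in either shCTRL group.

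Regions of the direct comparison were also checked for overlap with those called over input. In 10A, 19 of 107 overlapped one in shCTRL (17.8%, against 23.5% of all regions) and 39 one in shANCO1 (36.4%, against 45.2%). In DCIS, 12 of 68 overlapped one in shCTRL (17.6%, against 27% of all regions) and 21 one in shANCO1 (30.9%, against 30.3%). Of the regions that were up, 22 of 47 in 10A (46.8%, against 29.9% of all regions up) and 18 of 29 in DCIS (62.1%, against 61.5%) overlapped none in either group of the line.

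To set the lines side by side, DCIS regions were matched to 10A regions by the greatest overlap, which gave 58 pairs. Both regions were up in 16 pairs, the 10A region alone in 18, the DCIS region alone in 11, and neither in 12. In the remaining pair, at NRG1, the 10A region was down and the DCIS region up. Pairs up in both lines were 5 at EGFR, 5 at NRG1, 3 at HBEGF, 2 at TGFA and 1 at AREG. Those up in 10A alone were 4 each at EREG, EGFR and ERBB2, 3 at EPGN, 2 at AREG and 1 at NRG1, and those up in DCIS alone were 8 at NRG1, 2 at EGFR and 1 at TGFA. Several 10A pieces can pair with the same DCIS region, and a call in a single line is not a tested difference. All regions were not paired in this way, so these counts have no background share. Taken line by line, 43.6% of all regions were up in 10A and 23.6% in DCIS.

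The rest of the pathway was counted from 4 lists of genes around the family. In 10A, 63 of their 127 regions were up (49.6%, against 43.6% of all regions) and none was down. In DCIS, 20 of 106 were up (18.9%, against 23.6%) and 4 down (3.77%, against 4.86%). The family members left out of the 10 genes had 4 of 9 regions up in 10A (44.4%, against 43.6% of all regions). In DCIS, 3 of their 10 regions were up (30.0%, against 23.6%) and 2 down (20.0%, against 4.86%). Among them, NRG2 was up in both lines (1.86, FDR 0.000772 in 10A and 2.56, FDR 6.65e-05 in DCIS). ERBB4, a neuregulin receptor, was up in DCIS at its only region (3.38, FDR 2.22e-06). Neither NRG2 nor ERBB4 had a region called over input in either DCIS group. NRG4 had a region up in 10A (1.61, FDR 7.74e-05) and 2 regions down in DCIS (lowest FDR 0.00185, at -1.59). EGF itself had 1 region in each line, and neither was called.

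The shedding list was made up of ADAM metalloproteases that cut the ligand precursors, the iRhoms that carry them to the surface and the inhibitor TIMP3. Of its regions, 21 of 37 were up in 10A (56.8%, against 43.6% of all regions) and 7 of 31 in DCIS (22.6%, against 23.6%). The lowest FDR in 10A was at RHBDF1 (1.66, FDR 0.000184) and ADAM12 (1.48, FDR 0.000447). In DCIS it was at ADAM10 (2.32, FDR 3.36e-06) and ADAM12 (2.24, FDR 0.000292). That ADAM12 region was a single window, and ADAM12 had no region called over input in DCIS. Among adaptors, which couple the receptors to RAS, 8 of 22 regions were up in 10A (36.4%) and 1 of 19 in DCIS (5.26%), both below those shares of all regions. That DCIS region was at SHC1 (1.02, FDR 0.0229), which also had the lowest FDR of the list in 10A (0.98, FDR 0.000125).

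The attenuator list held genes whose products damp or degrade the receptors and also EPS8, an EGFR substrate that this description does not cover. It had 30 of 59 regions up in 10A (50.8%, against 43.6% of all regions) and 9 of 46 in DCIS (19.6%, against 23.6%). In DCIS 2 were down, at LRIG1 and EPS8. Of these counts, EPS8 gave 7 up of 18 in 10A and 4 up of 10 in DCIS. The lowest FDR in 10A was at PTPN12, a phosphatase (1.00, FDR 9.53e-06), and at ERRFI1, an inhibitor of the EGFR kinase (1.45, FDR 4.36e-05). In DCIS it was at another region of EPS8 (2.56, FDR 8.24e-07), and at CBL, which tags the receptor for degradation (2.77, FDR 1.19e-05). That CBL region was a single window, and CBL had no region called over input in DCIS.

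The cell identity was checked by the mark over input at marker genes. All 4 general epithelial markers (CDH1, EPCAM, KRT8 and KRT18) were marked in every group. Of the basal mammary markers, KRT5, TP63, ITGB4 and EGFR were marked in all groups and KRT17 in the DCIS groups, while KRT14 was called in none. Of the hormone receptor genes, PGR had no region called in any group. ESR1 had 7 regions called in 10A shCTRL, 9 in 10A shANCO1 and 2 in each DCIS group. Its highest log2 enrichment was 7.68, 7.89, 5.53 in DCIS shCTRL and 6.90 in DCIS shANCO1, in that order. Among markers of other cell types, PTPRC, CD3E, MYOD1 and ALB had no region in any group, while the endothelial genes CDH5 and PECAM1 were named for at least 1 region in each. The part of these regions in the results above was not tested.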

How the data were processed

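The 10 genes and the gene lists were chosen with earlier results of these data known, and nothing is tested over them. Per the study's methods, the authors checked reads with FastQC and aligned them with BWA and Rsubread on GRCh38. Duplicates were taken out by SAMtools, and csaw tested differential binding. HOMER is also named in the submitters' processing notes, with no version. The deposited log2 fold changes and FDR values (adjusted p-values over all regions of a table) come from that test on whole groups, with 1 value per region. The deposited counts of tested windows, and of windows up or down, are not reads. Normalization, window filter, merging distance, prior count and which input libraries served each comparison were not given in the sources used here. Depth and replicate spread are therefore unknown, and no interval is given. Nothing in the sources used here says whether the 3 libraries of a group are separate cultures, so an FDR may measure technical spread only.

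From these tables, regions were assigned to genes by the symbols in the authors' annotation, and counted at FDR under 0.05 by the authors' direction. All 290 family regions lay within 10 kb of the GENCODE release 44 gene of that name (largest distance 9043 bp). Overlap was at least 1 bp. Tables were read with Python 3.11.15 and pandas 2.3.3, sequences with pysam 0.24.0 and samtools 1.23.1 from hg38, and promoters from RefSeq. Sequences of other shared regions are not reported here. Counting was tested on simulated tables. Described for each gene were its promoter region nearest the start, its region of lowest FDR and that of largest absolute change among called regions of at least 5 windows. List examples were those of lowest FDR. Alternatives were FDR under 0.01 or 0.1, at least 5 windows, at least 1 log2 unit from the line's median, other annotation rules and FDR under 1e-10 over input.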

Additional observations from a re-analysis of the deposited data

How the results depend on the processing

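Of 68 values recomputed under the alternatives, 58 stayed within 1.5 times the reported count and 10 did not. In 10A, the 47 family regions up became 29 at FDR under 0.01 and 1 at no less than 1 log2 unit above the median of the line, where 1.14% of all 10A regions passed. The 9 genes with a region up became 1 under the latter setting, and the 1 region down became 0 at FDR under 0.01. Over input, 10A shCTRL went from 26 regions to 15 at FDR under 1e-10 and to 11 at no fewer than 5 windows, and DCIS shCTRL went from 14 to 6 under each of these. At no fewer than 5 windows 10A shANCO1 went from 48 to 25 and DCIS shANCO1 from 27 to 10. By construction these settings count fewer regions. The DCIS counts of regions up (29) and of genes (6) stayed within 1.5 times under every alternative run. The lowest count of regions was 20, at no fewer than 5 windows. At no less than 1 log2 unit above the median of the line it was 23, where 16.3% of all DCIS regions passed.

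No paired analysis was possible because the deposited tables hold 1 value per region for the 3 libraries of a group together. Leaving out a replicate was not possible either.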
